A study of Botryllus schlosseri with 78 samples.

Results

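Male colonies of the colonial tunicate Botryllus schlosseri were compared between stages B and A of the weekly budding cycle. The 12 libraries were those titled as male colonies at stages B1, B2, A1 and A2, out of 21 male libraries and 78 libraries in the whole series. Each genotype, M001, MADM and MDR, gave 1 library per substage, so stage B had 6 libraries and stage A had 6. All were made from whole colonies and all cells, per the labels, and no treatment, allele or age was given for any of them. The labels do not say whether the substages of a genotype came from 1 colony, from separate pieces or from separate colonies, so a p-value here reflects library-to-library spread only, part of which may be technical.

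In Botryllus, adult zooids are replaced by their buds in a repeating cycle. At stage A the new generation has just opened its siphons, at stage B the heart of the next bud begins to beat, at stage C the buds complete their organs, and at stage D, takeover, the old zooids are resorbed. When neighbouring colonies touch, the Fuhc locus decides between fusion and rejection, and receptors of the fester family take part in reading it. The question put to these libraries was whether the receptors, the Fuhc-locus products or the signalling proteins that lie below immune receptors in other animals differ between the opening phases of the cycle.

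Each value is read as a TMM-scaled TPM, that is, a length-corrected abundance put on a common total and then divided by a scaling factor per library. The table holds 137 transcripts: 45 FF transcripts, read here as the fester family, 69 FcoR transcripts, found by searches that began from fester sequences, 4 Fuhc-locus products and 19 signalling proteins. Transcripts are called by their names in the table, without the species prefix. Library sums over the table were 855616 to 1030534 in stage B and 844843 to 1162099 in stage A. These sums are near the full total of a TPM scale, so values are read as shares of these 137 transcripts, not of all RNA. Signalling transcripts made up 47.94% to 67.55% of a library and BHF 3.99% to 18.4%. A change in such a large part can shift the values of the others, and how far it did was not tested. The labels state 1 planned number of reads for all samples, and the read total behind each library is unknown. As an approximate view of sensitivity, the smallest value above 1 per library was 23.4 to 99.7 in stage B and 10.3 to 53.3 in stage A. Libraries of the same genotype correlated at 0.905 to 0.974 on the log2 scale over the 137 transcripts, and those of different genotypes at 0.529 to 0.703. None of the marker names of germline, haemocytes, muscle or vasculature matched a transcript of the table, so the sex and the cell make-up of these colonies could not be checked. In whole colonies, fewer cells of a type and less RNA per cell cannot be told apart.

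No transcript passed the test between stages B and A. Tests covered transcripts with a value of at least 1 in at least 6 of the 12 libraries, 85 of 137: 18 FF, 44 FcoR, all 4 Fuhc-locus and all 19 signalling transcripts. In limma on log2(value + 1), with genotype as a block and Benjamini-Hochberg adjustment over the 85, 0 were higher (0%) and 0 lower (0%) at an adjusted p of 0.05. At an unadjusted p under 0.05 there were 8 (9.41%), of which 5 were higher and 3 lower in stage B. These 8 were Shc, FuHc-Tm, Ras, FcoR74, FcoR22_30, PAK1, SHP2 and BHF. The smallest adjusted p was 0.0866, for Shc. The median log2 difference over all 85 was 0.03, with 48 above 0 and 37 below.

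The intervals show how large a mean difference over the 3 genotypes, in a transcript's share of the table, these libraries leave room for. They do not bound the difference within a single genotype. Of the 85 tested transcripts, 48 had a 95% interval that lay inside a 2-fold difference in either direction, and 32 lay inside 1.5-fold. All 19 signalling transcripts were inside 1.5-fold, with a median half-width of 0.24 on the log2 scale. NFAT, singled out after its values were seen, was among them. Its log2 difference was -0.38 in M001, -0.38 in MADM and 0.86 in MDR. The test of whether the genotypes differ in this gave an adjusted p of 0.260 in limma. Inside 2-fold were 12 of 18 FF, 14 of 44 FcoR and 3 of 4 Fuhc-locus transcripts. Over all receptors tested, those inside 2-fold included, the median half-width was 0.58 for the FF and 2.06 for the FcoR transcripts. Of these receptors, the intervals of FcoR74 and FcoR22_30 alone left out 0, before any adjustment. Among the 50 transcripts with a value of at least 1 in all 12 libraries, 42 were inside 2-fold, 8 of them FF and 12 FcoR. The other FF and FcoR transcripts inside 2-fold, FF27 and FF4 among them, stood at 0 in every library of a genotype. Such a genotype enters the fit with a difference of 0 and no spread, which narrows the interval.

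Of the Fuhc-locus products, FuHc-Tm, the membrane-bound one, was higher in stage B within every genotype, although it did not pass the adjusted threshold. In M001 it stood at 11877 and 12318 in B1 and B2, against 11006 and 7649 in A1 and A2. In MADM the values were 11574 and 7772 in stage B, against 4900 and 5982 in stage A. In MDR they were 9740 and 13293 in stage B, against 7912 and 8120 in stage A. Both stage B libraries thus lay above both stage A libraries of the same genotype in M001, MADM and MDR, though the 2 stages overlapped when genotypes were pooled, with MADM B2 below M001 A1. FuHc-Tm averaged 11096 ± 2002 in stage B and 7595 ± 2092 in stage A (SD, n = 6 each, genotypes pooled). The log2 difference was 0.57 ± 0.14 (SE), with a 95% interval from 0.25 to 0.89 and an adjusted p of 0.110 in limma. By genotype it was 0.40 in M001, 0.81 in MADM and 0.51 in MDR.

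BHF, a small protein of the same locus whose alleles follow fusion and rejection outcomes, was high in some of the stage A libraries. At A1 it stood at 181212 in M001 and 213319 in MADM, but at 71924 in MDR. At A2 the values were 61082, 61974 and 76417 in M001, MADM and MDR. In stage B they lay between 39993 and 70943. So 2 of the 6 stage A libraries, the A1 libraries of M001 and MADM, were far above all others, and in them BHF made up 17.5% and 18.4% of the summed values. In the other 10 libraries it made up between 3.99% and 8.36%. BHF averaged 57361 ± 10158 in stage B and 110988 ± 67849 in stage A (SD, n = 6 each), a log2 difference of -0.77 ± 0.32 (SE; 95% interval -1.50 to -0.05, adjusted p = 0.420 in limma). The step from A1 to A2 gave a log2 difference of -1.09 (95% interval -1.82 to -0.36) with an unadjusted p of 0.00887 and an adjusted p of 0.663 in limma. In MDR the A1 and A2 values were close, and both stage B values, 39993 and 56006, lay below them. Of the 12 single libraries left out in turn, 1 gave a call at this step, the A1 library of MDR (log2 difference -1.52, adjusted p = 0.0137 in limma), and leaving out genotype MDR gave -1.68 (0.00434). Those are the libraries without the drop, so these values are no support for it.

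FuHc-Sec, the secreted product, showed no shared direction. Its stage B values were 21673 and 17457 in M001, 19629 and 12295 in MADM, and 8994 and 17642 in MDR. In stage A it stood at 14643 and 14324 in M001, 13682 and 11902 in MADM, and 11715 and 26720 in MDR. The log2 difference was 0.07 ± 0.26 (SE; adjusted p = 0.995 in limma), with 0.43 in M001, 0.28 in MADM and -0.49 in MDR. HSP40L, an Hsp40-like protein encoded in the locus, ranged from 3685 to 9617 in stage B and from 2647 to 6989 in stage A. Its log2 difference was 0.34 ± 0.16 (SE), above 0 in all 3 genotypes, with an adjusted p of 0.535.

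The ratio of FuHc-Sec to FuHc-Tm within a library does not depend on the scaling between libraries. Its log2 value was 0.87 and 0.50 in M001, 0.76 and 0.66 in MADM, and -0.11 and 0.41 in MDR in stage B. In stage A it was 0.41 and 0.91 in M001, 1.48 and 0.99 in MADM, and 0.57 and 1.72 in MDR. It was lower in stage B in MADM and MDR and overlapped in M001. The mean was 0.51 ± 0.35 in stage B and 1.01 ± 0.51 in stage A (SD, n = 6 each), a difference of -0.50. An exact two-sided permutation of the stage labels within genotype gave p = 0.0741, and the smallest p that this design allows is 0.00926. With 1 library left out, the difference ranged from -0.69 to -0.31 and the exact permutation p from 0.0278 to 0.231. It was under 0.05 in 2 of the 12 cases. These were without the A1 library of M001 (-0.58, exact permutation p = 0.0278) and without its B1 library (-0.56, exact permutation p = 0.0463). M001 A1 had the lowest log2 ratio in stage A, 0.41, and M001 B1 the highest in stage B, 0.87. Both run against the difference, so these values are no support for it. Without genotype MDR the difference was -0.25 (exact permutation p = 0.333). It was -0.76 without M001 (exact permutation p = 0.0556) and -0.48 without MADM (exact permutation p = 0.278). With a genotype left out, too few permutations remain for a p under 0.05, so these cases cannot pass.

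**Figure D1:**
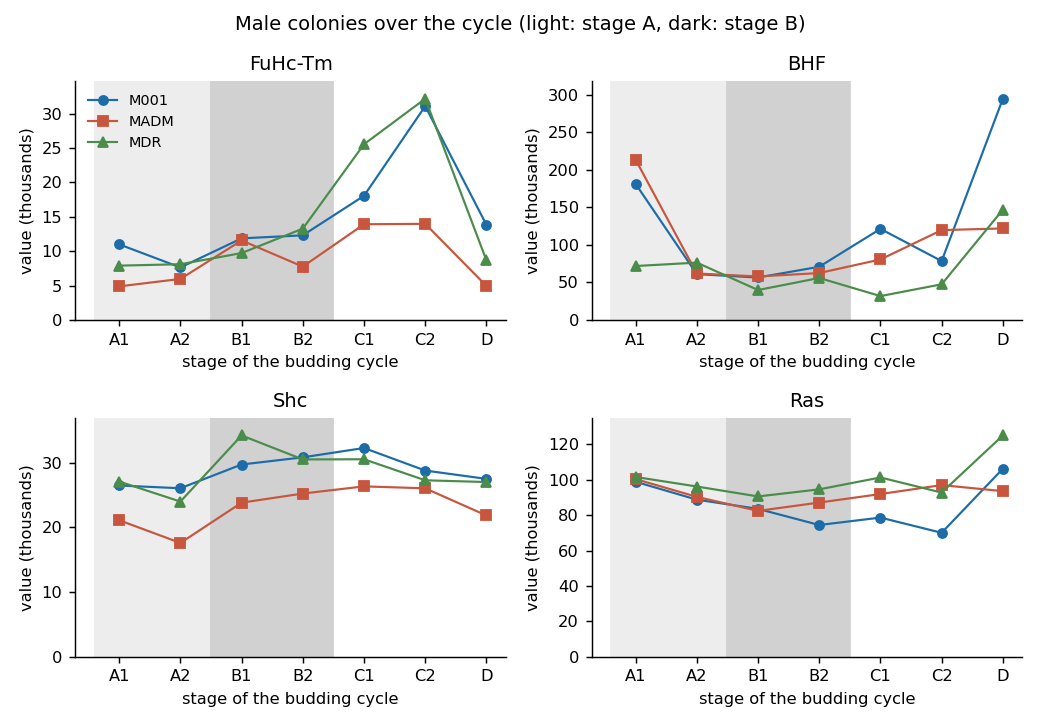
Values of FuHc-Tm, BHF, Shc and Ras (in units of 1000, linear axes from 0) in the 21 male libraries over the 7 stages of the budding cycle, with 1 line per genotype. FuHc-Tm lies between 7772 and 13293 in stage B and reaches 32167 at C2, while BHF is highest at D in M001 and MDR and at A1 in MADM.

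Over the rest of the cycle, FuHc-Tm went on from the stage B level. Its mean over the 3 genotypes was 7940 ± 3053 at A1, 7250 ± 1123 at A2, 11064 ± 1157 at B1, 11128 ± 2947 at B2, 19182 ± 5896 at C1, 25750 ± 10199 at C2 and 9159 ± 4460 at D (SD, n = 3). BHF averaged 155485 ± 74125 at A1, 66491 ± 8607 at A2, 51553 ± 10034 at B1, 63169 ± 7487 at B2, 77971 ± 44764 at C1, 81932 ± 36170 at C2 and 187743 ± 93230 at D. Its 3 libraries at D, at 121918 to 294426, were above every stage B library. BHF was highest at D in M001 and MDR and at A1 in MADM, as the plot of these transcripts over the cycle shows. These later stages are given as values with no test.

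The signalling proteins relay signals from immune receptors in vertebrates through phosphorylation, adaptors and small GTPases. Of the 19, 0 passed in either direction, 11 had a log2 difference above 0 and 8 below 0, and the median was 0.04, against 0.03 over all 85 transcripts tested. Their log2 differences lay between -0.25 for PLC-g, a phospholipase that releases calcium signals, and 0.30 for Shc. Shc is an adaptor that binds phosphorylated receptors and hands the signal on to Grb2, Sos and Ras. In M001 it stood at 29727 and 30835 in stage B, against 26482 and 26057 in stage A. In MADM it had 23827 and 25239 in stage B, against 21112 and 17603 in stage A. In MDR it had 34221 and 30513 in stage B, against 27094 and 23997 in stage A. Every stage B library of Shc was above both stage A libraries of its genotype.

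Shc averaged 29060 ± 3856 in stage B and 23724 ± 3709 in stage A (SD, n = 6 each). The log2 difference was 0.30 ± 0.06 (SE; 95% interval 0.15 to 0.44), with an unadjusted p of 0.00102 and an adjusted p of 0.0866 in limma. It was 0.20 in M001, 0.35 in MADM and 0.34 in MDR. Shc crossed the threshold when all 21 male libraries entered the fit (0.30, adjusted p = 0.0153), when each library was rescaled to the same sum (0.33, 0.0327), and, in a setting chosen after the values were seen, when BHF was left out and the rest rescaled (0.25, 0.0202). Over its 34 alternatives the adjusted p lay between 0.0153 and 0.705. Between neighbouring substages the largest log2 difference was 0.38, at B1 minus A2 (95% interval 0.18 to 0.57, adjusted p = 0.179 in limma). B2 minus B1 was -0.01 and A2 minus A1 was -0.15. These steps share libraries and were not compared, so the difference is not placed at any of them.

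Ras, the small GTPase at the head of the Raf, MEK and ERK kinase cascade, was lower in stage B within every genotype. Its values were 83612 and 74481 in M001, 82466 and 87175 in MADM, and 90635 and 94646 in MDR in stage B. In stage A they were 98936 and 88804 in M001, 100460 and 90383 in MADM, and 101635 and 96251 in MDR. Both stage B libraries lay below both stage A libraries of each genotype, with the narrowest gap in MDR. The log2 difference was -0.17 ± 0.06 (SE; 95% interval -0.30 to -0.04, adjusted p = 0.319 in limma). With BHF left out and the libraries rescaled, a setting chosen after the values were seen, it was -0.22 (adjusted p = 0.00301 in limma). Of the 34 alternatives for Ras, that was the only 1 past the threshold. Over all of them the adjusted p lay between 0.00301 and 0.758.

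FuHc-Tm and Shc were the only 2 of the 85 tested transcripts with both stage B libraries above both stage A libraries in every genotype (2.35%), and Ras the only 1 with both below (1.18%). PAK1, a kinase that acts below Rac, and SHP2, a tyrosine phosphatase, each had a log2 difference of 0.27. PAK1 ranged from 10071 to 14542 in stage B and from 7465 to 12579 in stage A (adjusted p = 0.420 in limma). SHP2 ranged from 11375 to 19760 in stage B and from 10784 to 15128 in stage A (adjusted p = 0.420). The log2 difference of SHP2 was -0.05 in M001, 0.40 in MADM and 0.46 in MDR, and the test of whether the genotypes differ in this gave an adjusted p of 0.5002 in limma. Without M001, the genotype with no increase, it was 0.43 with an adjusted p of 0.0188 in limma. That setting drops the contrary genotype, so this value is no support for SHP2. MEK, the kinase that activates ERK, differed by 0.14, and VAV, an exchange factor for Rac, by -0.18 (adjusted p = 0.680 for both). SYK, the kinase recruited by activating receptors, differed by 0.14 (adjusted p = 0.710), and ERK by 0.04. PLC-g, SYK and ERK were singled out after their values were seen.

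**Figure D2:**
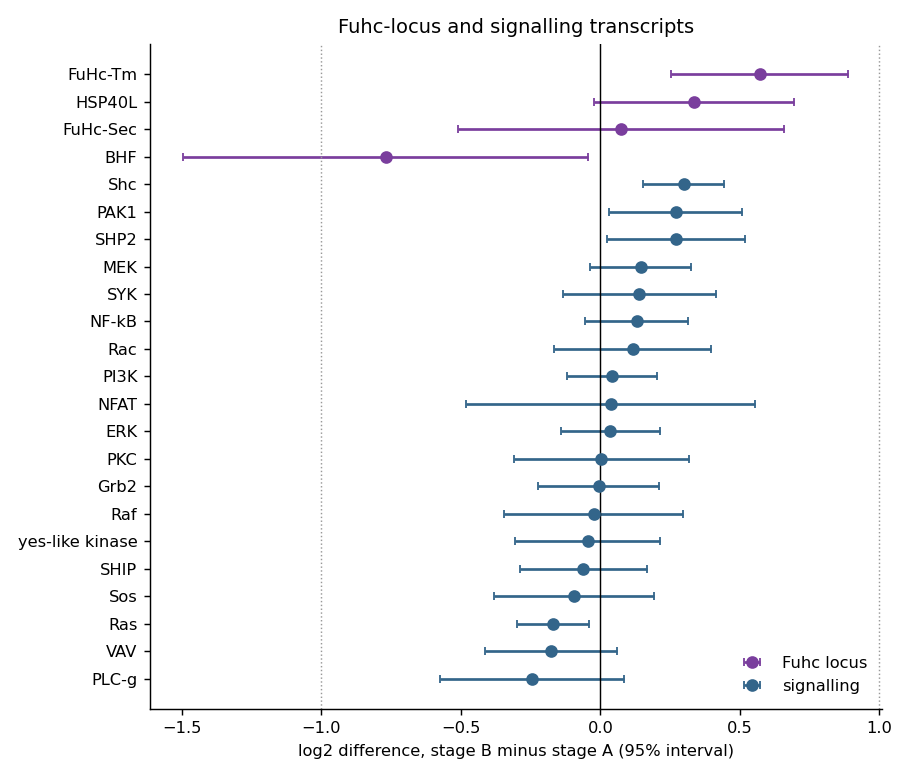
Log2 difference, stage B minus stage A, with its 95% interval from limma (horizontal axis) for the 4 Fuhc-locus and 19 signalling transcripts (rows); dotted lines mark a 2-fold difference. The intervals of the signalling transcripts all lie inside 1.5-fold, and that of BHF, from -1.50 to -0.05, is the widest.

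The FF receptors showed no shared shift between the stages. Of 18 tested, 10 had a log2 difference above 0 and 8 below 0, with a median of 0.01 against 0.03 over all 85. The 5 most abundant in these libraries were FF17, FF27, FF4, FF7 and FF12, and what a colony held depended on its genotype. FF17 stood at 305 and 478 in M001, 26261 and 26797 in MADM and 12971 and 11819 in MDR in stage B. In stage A it stood at 323 and 910.2 in M001, 32052 and 27074 in MADM and 12965 and 10644 in MDR. The genotypes lay far apart at both stages, M001 also ranged from 305 to 910.2 within itself, and the log2 difference between stages was -0.19 (95% interval -0.72 to 0.34, adjusted p = 0.879 in limma).

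FF27 was at 0 in all 4 M001 libraries. It had 9438 and 8571 in MADM and 26829 and 28632 in MDR in stage B, against 11918 and 8303 in MADM and 31277 and 21783 in MDR in stage A. FF4, also at 0 in M001, had 13258 and 12700 in MADM and 23267 and 22500 in MDR in stage B. In stage A it had 12940 and 14410 in MADM and 20671 and 21634 in MDR. FF12, which all 3 genotypes held at similar levels, ranged from 7566 to 12365 in stage B and from 8630 to 14642 in stage A. The log2 differences were -0.02 for FF27, 0.01 for FF4 and -0.04 for FF12, each with an adjusted p of 0.995 in limma. Their 95% intervals, from -0.43 to 0.40, -0.33 to 0.36 and -0.32 to 0.23, lay inside 1.5-fold. For FF27 and FF4, M001 entered the fit with a difference of 0 and no spread, which narrows the interval and draws the estimate towards 0.

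FF7 had the smallest p of the FF transcripts, with an adjusted p of 0.488 in limma and a log2 difference of -0.36 (95% interval -0.72 to 0.00321). It stood at 3467 and 3936 in M001, 12656 and 13650 in MADM and 12845 and 13077 in MDR in stage B. In stage A it stood at 6586 and 6836 in M001, 19274 and 14527 in MADM and 13785 and 10072 in MDR. Both stage B libraries were below both stage A libraries in M001 and MADM, and they overlapped in MDR. The log2 difference was -0.86 in M001, -0.35 in MADM and 0.14 in MDR, and the test of whether the genotypes differ in this gave an adjusted p of 0.260.

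FcoR transcripts divided likewise, with 24 of 44 above 0 and 20 below, a median of 0.04 against 0.03 over all 85, and 0 past the threshold. The most abundant was FcoR72. It stood at 76359 and 40943 in M001, 31156 and 28600 in MADM and 46790 and 43907 in MDR in stage B. In stage A it had 49742 and 36384 in M001, 26489 and 28291 in MADM and 39797 and 44929 in MDR. The stages overlapped in M001 and MDR, and M001 B1 was the highest of the 12. Its log2 difference was 0.21 (95% interval -0.12 to 0.53, adjusted p = 0.680 in limma), and 0.071 without M001 B1 and 0.13 without M001 A2. FcoR48 ranged from 2649 to 42680 in stage B and from 3904 to 35226 in stage A, with M001 lowest and MDR highest in both, and differed by 0.20 (95% interval -0.40 to 0.80). Leaving out 1 M001 library moved this to 0.011 without B2, 0.45 without B1, 0.13 without A2 and 0.33 without A1.

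FcoR17, FcoR5 and FcoR41 were high in MADM at both stages. FcoR17 had 27093 and 23714 in stage B and 22945 and 25921 in stage A of MADM, FcoR5 had 25740 and 19824 against 22574 and 21053, and FcoR41 had 24454 and 22867 against 19586 and 21478. Outside MADM, FcoR17 and FcoR5 stood at 0 to 362, and FcoR41 at 0 to 1325. In limma the log2 differences were 0.04, -1.06 and 1.77 with adjusted p of 0.995, 0.879 and 0.690. In M001 the differences of FcoR5 and FcoR41 were -3.22 and 4.17: FcoR5 was at 0 and 362 in stage B and at 138 and 227 in stage A, and FcoR41 was at 0.001 and 323 in stage B and at 0 in both stage A libraries. Without M001 B2, the difference of FcoR41 was 0.43.

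**Figure D3:**
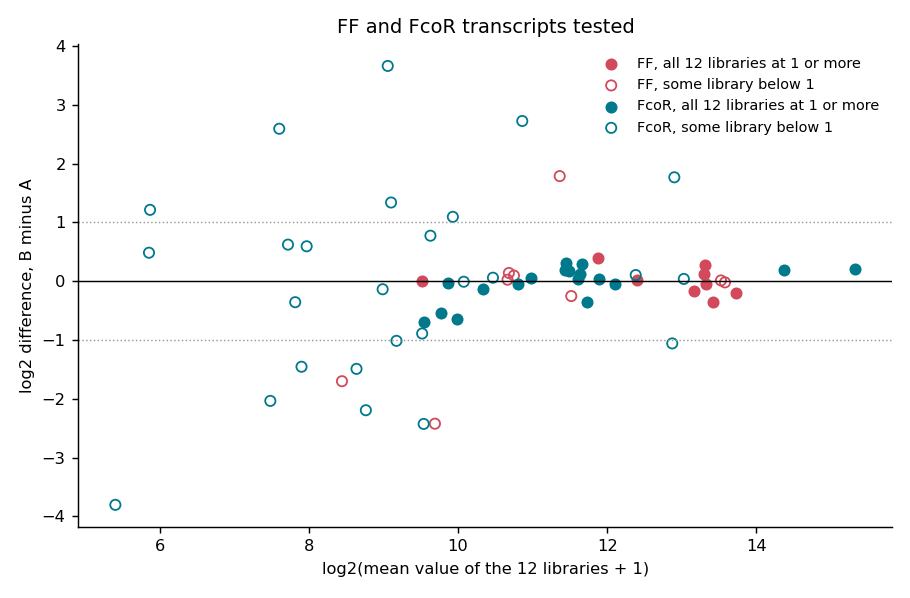
Log2 difference, stage B minus stage A (vertical axis), against the log2 of the mean value over the 12 libraries plus 1 (horizontal axis) for the 18 FF and 44 FcoR transcripts tested; filled points have a value of at least 1 in all 12 libraries, and dotted lines mark 2-fold. All 18 points beyond 2-fold are open, that is, at least 1 library was below 1.

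All 18 transcripts whose log2 difference passed 1 in either direction, 3 FF and 15 FcoR, had at least 1 library below a value of 1, as the plot of receptors by level shows. The log2 difference of FcoR74 was -3.80 ± 1.29 (SE; adjusted p = 0.319 in limma) with the pseudocount of 1, -1.77 with 10 and -0.46 with 100. Its values were 0 and 72.4 in M001, 33.4 and 0 in MADM and 0 and 0 in MDR in stage B. In stage A they were 42.4 and 193 in M001, 28.0 and 56.0 in MADM and 34.6 and 37.0 in MDR. These lie near the lowest values that a library held, so a value of 0 there may reflect depth, which was not tested.

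The sets of receptors detected, at a value of at least 1, were close to the same in the stages. Stage B libraries held 17 to 20 FF and 36 to 44 FcoR transcripts, and stage A libraries 17 to 22 FF and 38 to 45 FcoR transcripts. Within a genotype, the Jaccard index of the receptors detected in 2 libraries averaged 0.856 between a stage B and a stage A library (12 pairs, 0.797 to 0.925) and 0.849 between 2 libraries of the same stage (6 pairs, 0.794 to 0.882). In M001, MADM and MDR, 69, 79 and 71 of the 137 transcripts were detected in all 4 libraries and 50, 44 and 48 in none. A further 17, 13 and 15 were detected in 1 of the 2 libraries of a stage.

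Detection in both libraries of 1 stage and neither of the other was seen 5 times. Of 137 transcripts it covered 1 in M001 (stage A), 1 in MADM (stage B) and, in MDR, 1 in stage B and 2 in stage A. Detection in 1 of the 2 libraries of a stage was more frequent, at 17, 13 and 15 transcripts in M001, MADM and MDR. In MDR, FcoR22_30 had 66.8 and 148 in stage B and 0 in both stage A libraries. FcoR61 in MADM had 210 and 116 in stage B and 0 in both stage A libraries. The others ran the opposite way: FF30 in MDR, at 0 in stage B against 183 and 119 in stage A, FcoR74 in MDR, and FcoR47 in M001, at 0 in stage B against 460.1 and 101 in stage A. All of these values were below 500, and FcoR61 and FcoR47 were singled out after their values were seen.

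A test of whether the stage difference itself differs between genotypes called 2 of 85 transcripts in limma (2.35%), FcoR22_30 and FF30, each with an adjusted p of 0.0424. FcoR22_30 stood at 5634 and 5237 in M001 in stage B and at 4820 and 6071 in stage A, and at 129 and 99.0 in stage B and 20.6 and 71.4 in stage A of MADM. Its log2 difference was 0.01 in M001, 1.53 in MADM and 6.65 in MDR. FF30 was at 0 throughout M001 and had 3264 and 1515 in stage B and 3076 and 1741 in stage A of MADM. Its log2 difference was -0.06 in MADM and -7.21 in MDR. FF30 was below 1 in 6 of the 12 libraries, the most that the filter allows. Its stage A values in MDR thus helped bring it into the test. Pairs of libraries both at 0 entered with no spread, which lowers the residual variance behind the calls. In MDR both transcripts stood at 0 in 1 stage and at 66.8 to 183 in the other, and neither passed at a pseudocount of 10 (adjusted p = 0.368 and 0.293) or of 100 (0.721 and 0.591). Leaving out 1 library at a time gave adjusted p from 0.0276 to 0.157 for FcoR22_30 and from 0.0143 to 0.157 for FF30. The call was lost in 9 of 12 cases for FcoR22_30 and in 10 of 12 for FF30.

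Between neighbouring substages, 0 transcripts passed at any step (0% of 85 each). At an unadjusted p under 0.05 in limma there were 4 for A2 minus A1, 4 for B1 minus A2 and 3 for B2 minus B1. The smallest adjusted p was 0.125, for FcoR26 at B2 minus B1, with a log2 difference of -1.68 (95% interval -2.50 to -0.87). FcoR26 had 682 in M001, 174 in MADM and 299 in MDR at B2, against 1216, 629 and 1549 at B1. It was lower at B2 in every genotype, by the smallest factor in M001. Of the 12 single libraries left out in turn, 1 gave a call at this step, the B1 library of M001 (log2 difference -2.04, adjusted p = 0.0494 in limma). That library belongs to the genotype with the smallest drop, so this value is no support for FcoR26. FcoR26 was singled out after its values were seen. The 3 steps share libraries and were not compared with each other.

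Of the 52 transcripts not tested, 28 were below 1 in all 12 libraries, 16 FF and 12 FcoR, and 24 were detected in 1 to 5 libraries. Among these 24, 18 were present in all 4 libraries of 1 genotype and in no other: 10 FF and 8 FcoR. Their log2 differences between stages, each from 1 genotype with 2 libraries per stage and no test, ranged from -1.13 to 1.12 with a median of -0.07. FF31, held by M001, was at the top with 4639 and 3941 in stage B and 1600 and 2430 in stage A. FF28, also of M001, was at the bottom with 275 and 402 in stage B and 1050 and 505 in stage A. FF25, held by MDR, had 22214 and 24056 in stage B and 26853 and 16753 in stage A. FF31, FF28 and FF25 were singled out after their values were seen.

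**Figure D4:**
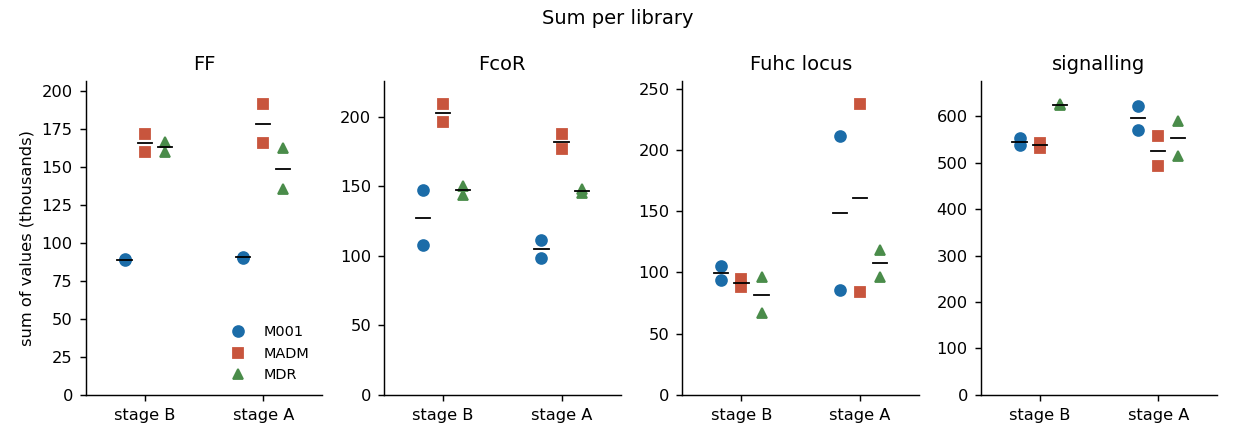
Sum of values per library (in units of 1000, vertical axes from 0) for the FF, FcoR, Fuhc-locus and signalling transcripts, stage B left of stage A; each point is 1 library, its shape and colour the genotype, and bars are means of 2 libraries. The FF and FcoR sums separate genotypes more than stages, and the 2 high Fuhc-locus sums in stage A are the A1 libraries of M001 and MADM.

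Summed over families, the FF total was 139324 ± 39209 in stage B and 139344 ± 41676 in stage A (SD, n = 6 each), a spread that is mostly between genotypes. Within genotypes its log2 difference was -0.03 in M001, -0.10 in MADM and 0.14 in MDR. The FcoR total was 158886 ± 37278 in stage B and 144412 ± 35101 in stage A, with log2 differences of 0.27, 0.15 and 0.00434 in M001, MADM and MDR. The signalling total was 569098 ± 43799 in stage B and 558295 ± 47821 in stage A. The Fuhc-locus total was 90807 ± 12970 in stage B and 138812 ± 67816 in stage A, and its log2 difference, -0.44 in M001, -0.63 in MADM and -0.41 in MDR, moved with BHF, as the plot of sums shows. BHF was left out only together with a rescaling of the libraries, as given above for Shc and Ras. With libraries rescaled to the same sum, the log2 difference of Shc was 0.33 with BHF in the sum and 0.25 without it. For FcoR72 it was 0.24 and 0.16. The part of BHF in the differences of the values as deposited was not tested.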

How the data were processed

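Poly-A RNA was read as paired ends, per the labels. They name 2 RNA kits and 2 sequencing centres and assign neither to a library, so batch is in no test. The tools listed in the submitters' processing notes are Trim Galore, RSEM and kallisto, without versions. The authors deposited 1 column of signal values per library, read here as TMM-scaled TPM: TMM is in the table's name, and TPM is inferred. Of 158 columns, 81 were not used because no label describes them. No name matched a RefSeq symbol, so no positions or sequences are given.

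Of the 1644 values in the 12 libraries, 651 were 0 and 3 lay between 0 and 1. No 2 libraries were identical. The fit used log2(value + 1) in limma 3.58.1 (R 4.3.3), let the prior variance follow the mean level, and adjusted p by Benjamini-Hochberg over all transcripts tested, at a threshold of 0.05. Genotype, given by the titles, was the block, and the deviations of a genotype from the stage means correlated at 0.806 to 0.909 between stages. Tables and plots used Python 3.11.15. The tests were checked on simulated data.

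Named transcripts were the 10 with the smallest p, the 5 FF and 5 FcoR with the highest mean, the Fuhc locus, the 6 signalling transcripts with the smallest p, and those called in the interaction. Others are marked as singled out after their values were seen. The comparison, lists and rule were chosen with earlier results of these data known. Marker names of germline, haemocytes, muscle and vasculature matched 0 transcripts.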

Additional observations from a re-analysis of the deposited data

Results flagged for a closer look

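In groups of 6 libraries, 3 of 58 sets of values held a library far from the others by Dixon's criterion. Its usual rate of about 1 in 20 is for independent values from 1 population. These sets pool 3 genotypes and share libraries, so that rate does not apply to them. FcoR74 stood at 193 in M001 A2, FF12 at 14642 in M001 A2, and FuHc-Sec at 26720 in MDR A2. In that last library the ratio of FuHc-Sec to FuHc-Tm was 3.29, the highest of the 12.

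The stage difference of FcoR22_30 and of FF30 differed between genotypes by the interaction test (adjusted p = 0.0424 for each in limma). In MDR, FcoR22_30 had 66.8 and 148 in stage B and 0 in stage A, and FF30 had 0 in stage B and 183 and 119 in stage A. Without those stage A values, FF30 would not have met the filter of the test.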

How the results depend on the processing

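The count of 0 calls between stages B and A held in every setting that left out 1 library and under most others, with no replicate block (genotype left out of the fit) among them (0 calls). It became 1 (1 higher, Shc) with all 21 male libraries in the fit and with libraries rescaled to the same sum, 1 (1 higher, SHP2) without genotype M001, and 2 (1 higher, Shc, and 1 lower, Ras) with BHF left out and the libraries rescaled, 2 changes in 1 setting that was chosen after seeing the data; rescaling alone already called Shc. The scalings moved the median difference of all transcripts by -0.07 to 0.03.

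The 2 interaction calls became 0 at pseudocounts of 10 and 100, under each of the 3 scalings, with BHF left out and the libraries rescaled, and without M001 or MDR; leaving out 1 library gave 0 to 5, some of them other transcripts. A filter for detection in all 12 libraries also gave 0, but it removes both transcripts from the test. With a mean of at least 100 or without MADM there were 3. With 1 library left out, A2 minus A1 and B2 minus B1 gave 0 to 1 calls, and A2 minus A1 gave 1 without MDR. The difference in the FuHc-Sec to FuHc-Tm ratio ranged from -0.69 to -0.31 with 1 library left out.

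Log2 differences of these transcripts changed sign, none of them past the threshold; the main value was -1.06 for FcoR5 and between -0.19 and 0.20 for the others. FcoR17 was -0.048 and -0.038 at pseudocounts of 10 and 100. A1 against B1 alone gave -2.40 for FcoR17, -0.35 for FcoR48 and 0.16 for FF12. A2 against B2 alone gave 0.19 for FcoR5, 0.15 for FF27, -0.042 for FF4, -0.089 for FuHc-Sec and 0.00416 for VAV. Without M001, FcoR5 was 0.026 and FuHc-Sec -0.10; without MADM, FF27 was 0.043 and FuHc-Sec -0.032; without MDR, FF12 was 0.011 and FF4 -0.037. FF4 was also -0.083 in the centred and -0.077 in the signalling scaling, -0.0088 with array weights and -0.047 without BHF. With 1 library left out, the ranges were -0.15 to 0.025 for FF12, -0.34 to 0.032 for FF17, -0.10 to 0.061 for FF27, -0.0074 to 0.044 for FF4, -0.97 to 1.04 for FcoR17, -1.85 to 0.28 for FcoR5 and -0.038 to 0.29 for FuHc-Sec. Other than where a setting tests fewer transcripts or libraries, the cause was not tested. Depth is unknown, so values near the lowest of a library limit what can be said of receptors listed at 0.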
